A study of Rattus norvegicus with 18 samples.

Results

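The interferon response genes are a set of 39 genes that carry, sense or answer an interferon signal, followed here in cultured bone marrow mesenchymal stem cells (BMSCs) of rats on 2 diets. The set was drawn up by gene name. A member was measured by each probe set, the group of short probes that reads 1 transcript, whose only listed gene symbol was that of the member. Of the 39 genes, 36 had such a probe set, and Gbp5, Xaf1 and Trim21 had none. The 36 genes held 47 of the 31099 probe sets on the array. After the dimmest 30% of probe sets had been left out, 33 probe sets of 28 members stayed among 21729 tested probe sets and 11446 named genes. Each gene was read from its brightest tested probe set.

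The cells came from Sprague-Dawley rats aged 6 weeks when feeding began, with no transgene or deletion named in the labels. Both diets shared the basal chow. The normal diet (ND) was basal chow alone, and the high-fat diet (HFD) was 60% basal chow with 20% lard, 10% sucrose and 10% egg yolk powder. Rats were fed for 1, 2 or 4 months, and each of the 6 groups held 3 arrays of total RNA, 18 in all. The cultures were started by plating whole marrow, so blood cells that adhere to plastic can be carried along, and the labels give passage 3 where the series text gives passage 1. The labels do not tie arrays to animals beyond a replicate number, so p-values here reflect only how far arrays of 1 group lie apart, which may be technical.

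Interferons are secreted proteins, and those of type I are released when a cell detects viral or other foreign nucleic acid. Type I interferons act through the kinases Jak1 and Tyk2 on a complex that holds Stat2 and Irf9 and binds the interferon-stimulated response element, and the signal of interferon gamma passes through Jak1 and Jak2 to the gamma-activated site. The genes switched on include proteins that block virus entry, GTPases that attack intracellular pathogens, and chemokines that call in T cells. Marrow stromal cells respond to interferons, and so do the macrophages that grow beside them.

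Promoter sequences are shown because these 2 elements define how such genes are read by the pathway. They came from the RefSeq table of the GRCr8 assembly, from 250 bases before to 50 after the transcript start, and 32 of the 39 members matched it. The response element was searched for on both strands as GAAA, any 2 bases and GAAA again, and the gamma-activated site as TTCNNNGAA, which is the same on both strands, and matches were allowed to overlap. The response element letters were found in 20 of the 32 member promoters (62.5%) and in 1312 of all 33469 promoters of the table (3.92%). The gamma-activated site letters were found in 11 member promoters (34.4%) and in 2970 of the table (8.87%). Both elements with their first bases 11 apart, in either order, stood in 4 member promoters (Ifitm3, Igtp, Irgm and Parp14) and in 6 of the whole table. This spacing was looked for after the sequences had been seen. The response element came first in Ifitm3, and the gamma-activated site came first in Igtp, Irgm and Parp14. The response element letters stood in 59.1% of the 22 promoters of members above the intensity filter described below and in 57.1% of the 7 of members below it.

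The 3 members that fell on HFD at 2 months are Ifitm3, Igtp and Stat2, and their promoters follow whole, with both elements in capitals. That of Ifitm3 lies at chr1:205541709-205542008 on the minus strand, that of Igtp at chr10:42874797-42875096 on the plus strand and that of Stat2 at chr7:1286840-1287139 on the plus strand. The elements start 44 and 33 bases before the transcript start in Ifitm3 and 103 and 114 bases before it in Igtp. The Stat2 window holds neither set of letters.
Ifitm3: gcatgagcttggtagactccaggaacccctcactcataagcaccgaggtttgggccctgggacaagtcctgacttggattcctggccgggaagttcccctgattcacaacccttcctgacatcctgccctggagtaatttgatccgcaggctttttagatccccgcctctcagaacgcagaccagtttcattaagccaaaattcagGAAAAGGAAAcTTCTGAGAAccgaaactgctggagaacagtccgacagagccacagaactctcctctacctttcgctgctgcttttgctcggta
Igtp: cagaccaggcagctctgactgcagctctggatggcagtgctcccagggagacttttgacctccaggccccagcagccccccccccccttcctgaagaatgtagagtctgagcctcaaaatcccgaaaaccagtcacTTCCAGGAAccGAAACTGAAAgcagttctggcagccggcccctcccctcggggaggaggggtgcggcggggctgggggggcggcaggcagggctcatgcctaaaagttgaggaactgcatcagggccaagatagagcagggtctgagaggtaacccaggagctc
Stat2: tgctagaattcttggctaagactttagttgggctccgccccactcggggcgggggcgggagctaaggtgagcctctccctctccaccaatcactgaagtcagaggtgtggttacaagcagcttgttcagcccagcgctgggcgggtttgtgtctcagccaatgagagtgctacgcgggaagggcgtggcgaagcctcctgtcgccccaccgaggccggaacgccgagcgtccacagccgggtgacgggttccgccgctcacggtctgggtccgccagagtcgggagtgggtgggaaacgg

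The next 40-base windows show the response element, in capitals, in other members described below. Parp14 and Irgm are the other 2 members with the 11-base spacing, and the gamma-activated site stands in lower case to the left of their capitals. Gbp2, Ifit3 and Rsad2 carry the element on the opposite strand, so that its reverse complement is printed. Oas1a carries 2 overlapping matches. The windows lie at chr11:78408043-78408082 (Parp14), chr10:33742588-33742627 (Irgm), chr1:205482357-205482396 (Ifitm2), chr10:104127874-104127913 (Lgals3bp), chr2:234005681-234005720 (Gbp2), chr1:241527267-241527306 (Ifit3), chr12:41330416-41330455 (Oas1a) and chr6:48788243-48788282 (Rsad2). Those of Irgm, Ifitm2, Lgals3bp and Rsad2 are on the minus strand and the others on the plus strand.
Parp14: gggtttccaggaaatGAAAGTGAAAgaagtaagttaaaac
Irgm: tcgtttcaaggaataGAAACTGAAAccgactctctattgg
Ifitm2: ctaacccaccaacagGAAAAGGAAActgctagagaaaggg
Lgals3bp: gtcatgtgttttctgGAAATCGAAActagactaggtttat
Gbp2: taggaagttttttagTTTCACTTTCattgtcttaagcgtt
Ifit3: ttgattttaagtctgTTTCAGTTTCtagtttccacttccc
Oas1a: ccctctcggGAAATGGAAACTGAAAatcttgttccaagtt
Rsad2: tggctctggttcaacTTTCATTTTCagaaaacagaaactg

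**Figure D1:**
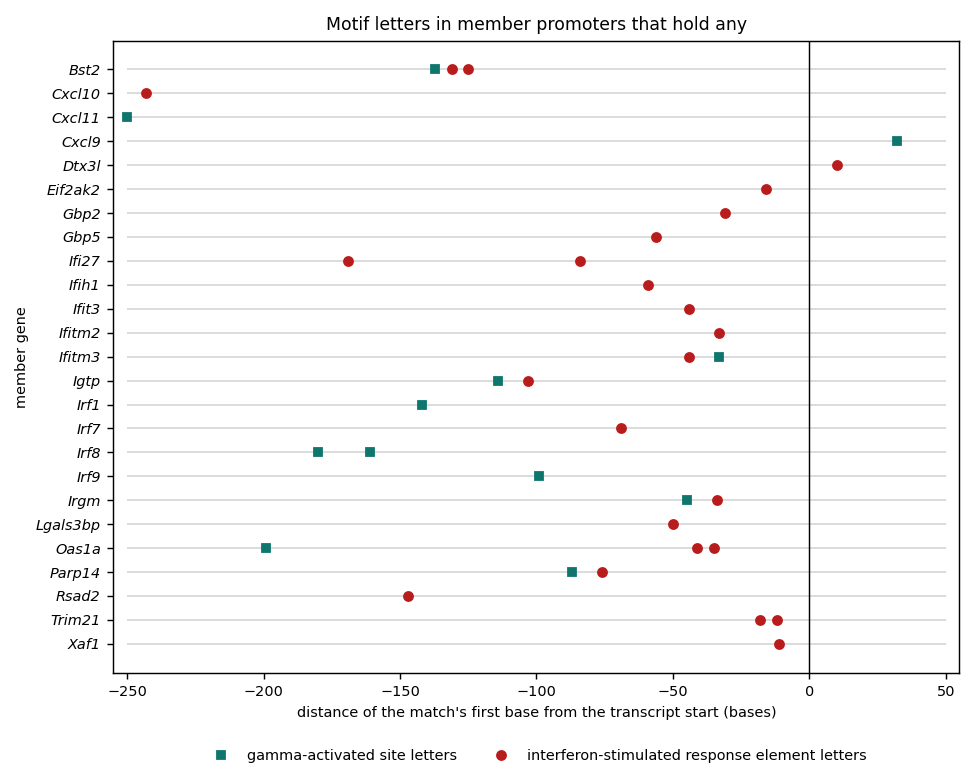
Positions of the interferon-stimulated response element letters (circles) and gamma-activated site letters (squares) in the member promoters that hold any, with the distance of the first base of each match from the transcript start, in bases, along the horizontal axis and 1 line per gene. Ifitm3, Igtp, Irgm and Parp14 show a circle and a square 11 bases apart.

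The arrays were alike in brightness, with medians of 25.4 to 27.1 and 75th percentiles of 119 to 132 on the linear intensity scale. Stromal markers differed in brightness. The surface protein Thy1 read 11.71 to 12.13 and the collagen Col1a1 12.04 to 12.70 in log2 intensity over the arrays. The stromal marker Eng read 5.69 to 6.68 and Vcam1 2.56 to 6.77, and Lepr had a mean of 2.83, below the intensity filter. Macrophage markers were present too. The scavenger receptor Cd163, at 2.08 to 10.30, and the macrophage receptor Adgre1, at 4.25 to 9.94, varied far more than Thy1 and Col1a1. The T cell gene Cd3d, the B cell gene Cd79b and the endothelial gene Pecam1 lay below the intensity filter on average. Other genes of these lists lay above it, such as the T cell gene Lck at 4.84 to 6.14. Of the listed genes with a probe set, 7 of 12 T and NK cell markers were above the filter. The same held for 1 of 4 B cell and 1 of 6 endothelial markers. Gbp2, Ifitm2 and Irf1 have no value on ND 1-month replicate 1, and their fits drop that array.

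Many of the classical interferon-induced antiviral genes were dim in these cultures. The filter stood at 3.22 in log2 intensity, and 8 members had means below it. They include all 3 chemokines of the set, which attract T cells through the receptor Cxcr3: Cxcl9 read 2.00 to 2.74 over the 18 arrays, Cxcl10 2.23 to 2.91 and Cxcl11 2.00 to 3.03. The GTPase Mx1, which traps viral nucleocapsids, read 2.19 to 2.80. Ifit3, which binds viral RNA complexes, read 1.87 to 2.46, and Oas1a, which makes the messenger that activates RNase L, 2.51 to 3.05. Rsad2, or viperin, which makes a chain-terminating nucleotide, read 2.21 to 3.05, and Dhx58, an RNA helicase of the RIG-I family, 2.65 to 3.71. These 8 genes were left out of the main diet tests, and none of them passed when the tests were run without the filter.

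The other 28 members covered every role but the chemokines. They were all 8 signalling proteins and transcription factors, 2 of 3 RNA sensors and kinases, 5 of 6 enzymes of ISG15, ubiquitin and ADP-ribose, 5 of 10 intracellular antiviral proteins, all 5 membrane and secreted proteins, and 3 of 4 GTPases. They varied more within groups than other genes did: the median residual SD was 0.271 log2 units over the 28 members and 0.199 over all tested genes. The spread was widest in Ifitm1 (1.19), Irf8 (0.976) and Usp18 (0.740). Ifitm3 was among the steadiest genes, with a residual SD of 0.102.

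**Figure D2:**
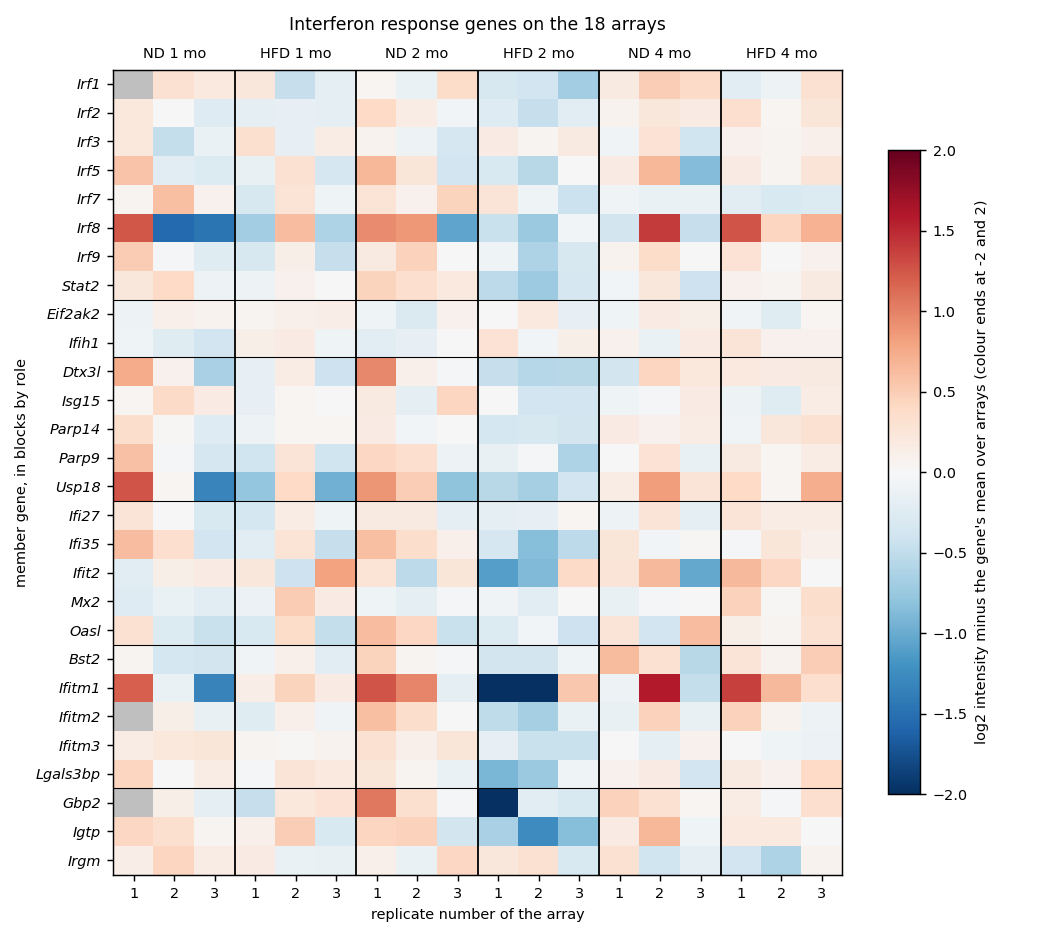
Log2 intensity of the 28 tested members minus each gene's mean over arrays, with 1 column per array, 3 per diet and feeding time, and genes in blocks by role; grey marks no value and the colours end at -2 and 2. The 3 HFD 2-month columns are below the mean for most members, and Irf8, Usp18 and Ifitm1 differ widely between arrays of the same group.

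The diets were compared first after 2 months, where the median difference of the members was largest. The members that fell on HFD were 3, the entry inhibitor Ifitm3, the transcription factor Stat2 and the immunity-related GTPase Igtp. Of the 28 tested members 24 had a lower mean on HFD (85.7%, against 55.3% of all tested genes), and the median difference was -0.51 log2 units against -0.04 over all genes. The 3 that fell are 10.7% of the members, where 1.39% of the 11446 tested genes fell (limma, Benjamini-Hochberg adjusted p under 0.05). None rose, where 1.1% of all genes did, and 2.49% passed in either direction. At an unadjusted p under 0.05 there were 14 members (50%, all genes 21.3%), and in 12 members every HFD array lay below every ND array (all genes 14.8%). No member passed without ND replicate 1 or HFD replicate 2 of this time, Ifitm3 alone passed without ND replicate 2 or HFD replicate 1, and 6 members fell without HFD replicate 3. The count over all tested genes varied with them, from 18 and 29 in the first pair of fits and 98 and 36 in the second to 728 in the last, against 285 with every array.

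Ifitm3 is a membrane protein that keeps viruses from fusing with endosomes. Its log2 intensity, in the order of the replicate numbers as in all sentences of this kind, was 12.36, 12.15 and 12.29 on the ND arrays at 2 months and 11.89, 11.60 and 11.61 on the HFD arrays. The ranges did not overlap, and all 3 HFD values were below every array of the other groups except ND 4-month replicate 2. The difference was -0.56 ± 0.10 (SE, n = 3 per diet, limma adjusted p = 0.0146), or 1.48-fold lower on HFD.

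Stat2 belongs, with Irf9, to the complex that reads type I interferon. It read 7.91, 7.79 and 7.65 on ND and 6.93, 6.74 and 7.13 on HFD at 2 months. The ranges did not overlap, and the difference was -0.85 ± 0.16 (adjusted p = 0.0178, 1.80-fold lower). A second, dimmer probe set of Stat2 gave -0.53 ± 0.23 and did not pass (adjusted p = 0.206).

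Igtp is a GTPase induced by interferon gamma that acts on the vacuoles of intracellular parasites. It read 6.01, 6.05 and 5.21 on ND and 4.94, 4.33 and 4.73 on HFD at 2 months. The lowest ND array stood just above the highest HFD array, and the difference was -1.09 ± 0.26 (adjusted p = 0.0433, 2.13-fold lower). The second probe set of Igtp was near the intensity filter, with a mean of 3.26, and gave -0.04 ± 0.12 (adjusted p = 0.889). Igtp no longer passed in 10 of the 18 fits that left out 1 array each, Stat2 in 4 and Ifitm3 in 2.

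Of the 8 signalling proteins and transcription factors 7 were lower on HFD at 2 months, with a median difference of -0.52, and Stat2 was the member that passed. Irf2, which competes with Irf1 at response elements, read 8.10, 7.85 and 7.66 on ND and 7.45, 7.25 and 7.49 on HFD, with no overlap (-0.47 ± 0.13, adjusted p = 0.0741). Irf1, an early activator downstream of interferon gamma, read 6.42, 6.25 and 6.75 on ND and 6.06, 6.00 and 5.68 on HFD, again without overlap (-0.56 ± 0.19, 0.127). Irf9, the DNA-binding partner of Stat2, read 6.41, 6.69 and 6.22 on ND and 6.14, 5.61 and 5.91 on HFD (-0.56 ± 0.21, 0.153). Irf5, Irf7 and Irf8, which drive interferon and cytokine genes in immune cells, stood at -0.46 ± 0.35, -0.36 ± 0.19 and -0.68 ± 0.73, within the spread of their arrays. Irf3, which switches on interferon beta and is not itself interferon-induced, was the exception: it read 7.93, 7.77 and 7.53 on ND and 8.03, 7.92 and 8.04 on HFD (0.25 ± 0.19, 0.458).

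The 2 tested RNA sensors and kinases did not share the lower level. Ifih1, the sensor of long double-stranded RNA also called MDA5, read 3.29, 3.33 and 3.49 on ND and 3.79, 3.44 and 3.62 on HFD at 2 months (0.25 ± 0.12, adjusted p = 0.263). Eif2ak2, the kinase PKR that halts translation on double-stranded RNA, read 5.38, 5.19 and 5.56 on ND and 5.46, 5.66 and 5.31 on HFD (0.10 ± 0.12, 0.654). Their ND and HFD ranges overlapped. Ifih1, with a mean of 3.50 over the arrays, lay close to the filter at 3.22, where a fall could hardly show.

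All 5 tested enzymes of ISG15, ubiquitin and ADP-ribose were lower on HFD at 2 months, by a median difference of -0.49, and none passed. The ubiquitin ligase Dtx3l read 5.86, 5.00 and 4.87 on ND and 4.43, 4.32 and 4.34 on HFD, without overlap (-0.88 ± 0.31, adjusted p = 0.141). Parp14, an ADP-ribosyltransferase, was tight on HFD at 6.26, 6.29 and 6.25 against 6.77, 6.56 and 6.60 on ND (-0.38 ± 0.14, 0.142). A second, dim probe set of Parp14 gave -0.11 ± 0.18. Parp9, which pairs with Dtx3l, stood at -0.49 ± 0.24, and the ISG15 protease Usp18 at -0.72 ± 0.55. The ubiquitin-like modifier Isg15 stood at -0.39 ± 0.16 (0.198), with an overlap between the diets.

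Of the 5 intracellular antiviral proteins 4 were lower on HFD at 2 months and none passed. Ifi35, a binding partner of Nmi, came closest: it read 7.38, 7.14 and 6.88 on ND and 6.44, 5.93 and 6.26 on HFD, without overlap (-0.92 ± 0.24, adjusted p = 0.0545). Ifit2, which binds viral RNA complexes and arrests translation, stood at -0.53 ± 0.45 and its second probe set at -0.56 ± 0.45. Ifi27, a mitochondrial protein, stood at -0.17 ± 0.17, and Oasl, which boosts RNA sensing, at -0.45 ± 0.31. Mx2, a dynamin-like GTPase, showed a difference of 0.00 ± 0.14. Its mean at this time was 3.16 on both diets, under the filter level of 3.22, where a fall could hardly show.

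All 5 membrane and secreted proteins were lower on HFD at 2 months, by a median difference of -0.63, and Ifitm3 was the one that passed. Its relative Ifitm2 read 11.56, 11.31 and 10.98 on ND and 10.46, 10.30 and 10.84 on HFD, without overlap (-0.75 ± 0.22, adjusted p = 0.0787). Ifitm1, which acts at the cell surface, read 11.57, 11.30 and 10.14 on ND and 6.77, 7.43 and 10.86 on HFD. HFD replicates 1 and 2 lay below every other array of the study, HFD replicate 3 lay among the ND arrays, and the difference of -2.65 ± 0.89 did not pass (0.118). The secreted glycoprotein Lgals3bp read 9.04, 8.85 and 8.66 on ND and 7.88, 8.06 and 8.71 on HFD (-0.63 ± 0.20, 0.105). Bst2, or tetherin, which holds budding virus at the membrane, did not overlap between the diets but differed by only -0.43 ± 0.24 (0.323). The 3 Ifitm genes are close paralogues, so a part of the signal of 1 can come from another.

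The GTPases differed among themselves at 2 months. Besides Igtp, the guanylate-binding protein Gbp2 read 6.76, 6.03 and 5.67 on ND and 3.63, 5.49 and 5.41 on HFD, with 1 HFD array far below the rest (-1.31 ± 0.41, adjusted p = 0.103). Irgm, of the same family as Igtp, read 6.33, 6.09 and 6.64 on ND and 6.46, 6.53 and 5.93 on HFD, and the diets overlapped (-0.05 ± 0.22, 0.923).

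**Figure D3:**
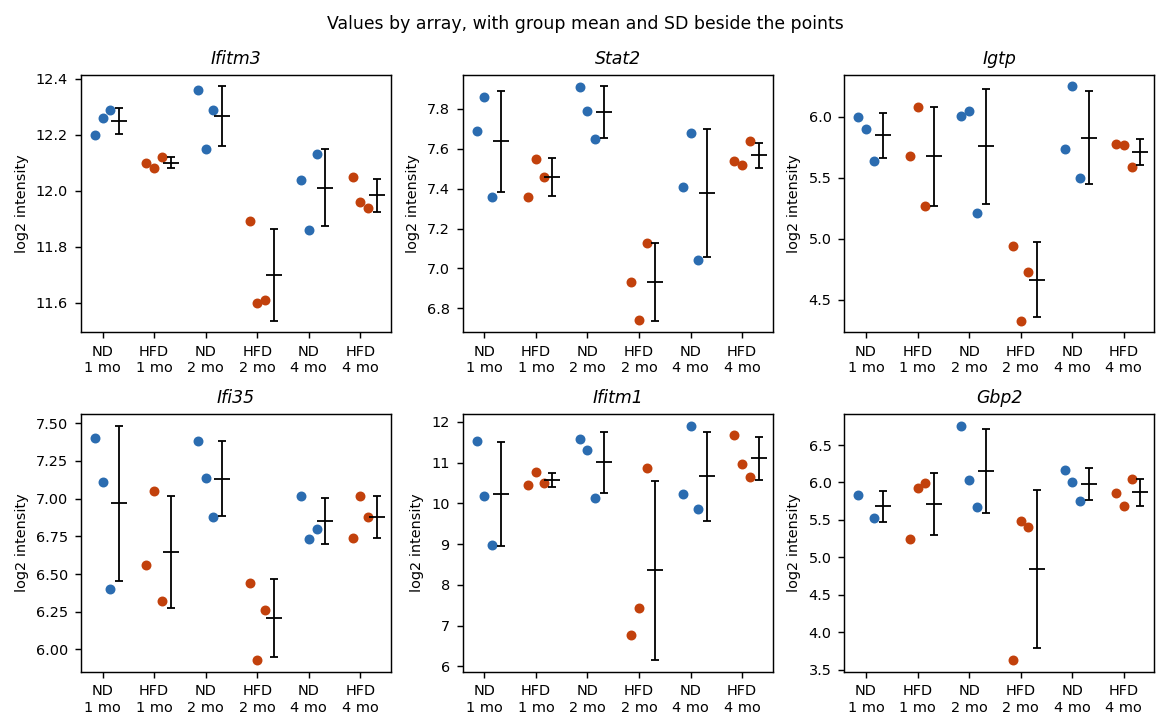
Log2 intensity of Ifitm3, Stat2, Igtp, Ifi35, Ifitm1 and Gbp2 on each array, with the group mean and SD beside the points (blue, ND; red, HFD; 3 arrays per group, 2 for Gbp2 on ND at 1 month). For Ifitm3, Stat2, Igtp, Ifi35 and Gbp2 the HFD 2-month arrays lie below the ND 2-month arrays, while 1 HFD 2-month array of Ifitm1 lies among them.

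Markers of other cells also differed in level at 2 months. The level of the macrophage markers, the mean of 24 of 31 listed genes relative to its average over arrays in log2 units, was 1.71, 1.53 and -1.82 on the ND arrays and -2.51, -1.09 and 0.01 on the HFD arrays. The groups overlapped, and 26 of the 27 tested macrophage markers had a lower mean on HFD, with a median difference of -1.66 and none past the test. The level of 13 stromal markers was 0.03 to 0.19 on ND and -0.32 to -0.21 on HFD, and that of 3 adipocyte markers -0.56 to 1.36 and -1.32 to -0.65. The stromal markers did not all go the same way. The chemokine Cxcl12 read 11.56 to 12.63 on ND and 8.53 to 9.72 on HFD, and the collagen Col1a2 13.07 to 13.15 and 13.19 to 13.26. The level of 7 T and NK cell markers was -0.28 to 0.33 on ND and -0.14 to 0.05 on HFD, that of 2 granulocyte markers -0.58 to 0.93 and -0.39 to -0.32, and that of the 1 B cell marker -0.28 to 1.15 and -1.64 to -0.26. The 1 endothelial marker, Tie1, stood at -0.99 to 1.15 and -1.19 to -0.31. The 1 plasmacytoid dendritic marker, Tcf4, stood at -0.13 to 0.00 and -0.09 to 0.32, with a log2 intensity of 8.54 to 9.16 over all arrays. A list of 1 gene, such as these 2 or Blnk for B cells, does not establish that cells of that type were present. The diets overlapped in these lists but not in the stromal and adipocyte ones, and the mean was lower on HFD in all of them except the plasmacytoid dendritic one. In such bulk cultures fewer cells of a type and less RNA per cell cannot be told apart.

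With the macrophage level as a covariate in the limma model, Ifitm3 differed by -0.62 ± 0.10 (adjusted p = 0.0102) and Stat2 by -0.73 ± 0.15 (0.0307) between the diets at 2 months. Igtp stood at -0.86 ± 0.23 and no longer passed (0.0687). In that fit 21 of 28 members were lower on HFD, the median difference was -0.35 against -0.02 over all genes, and 2.0% of all tested genes passed. The difference in Ifitm1 was -1.62 ± 0.61 in place of -2.65, in Irf8 0.30 ± 0.34 in place of -0.68 and in Usp18 0.00 ± 0.28 in place of -0.72. In Irf1 it was larger than without the covariate, -0.73 ± 0.19 in place of -0.56 (0.0687). The part that the markers of cells other than macrophages play in these differences was not tested.

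After 1 month no member passed, as no gene on the array did (0.0% of 11446 genes called). The lowest adjusted p among the members was 0.363. In all, 19 of the 28 members were lower on HFD (67.9%, all genes 62.6%), with a median difference of -0.09 against -0.06 over all genes. At an unadjusted p under 0.05 there were 2 members (7.14%, all genes 8.91%), both higher on HFD. Mx2 read 3.02, 3.14 and 3.05 on ND and 3.16, 3.78 and 3.44 on HFD, without overlap (0.39 ± 0.14, limma adjusted p = 0.363). Ifih1 read 3.41, 3.25 and 3.11 on ND and 3.62, 3.66 and 3.42 on HFD, also without overlap (0.31 ± 0.12, 0.395). Both genes lay close to the intensity filter.

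Another 4 members completed the 3 largest moderated t each way at 1 month. Irf3 read 8.08, 7.39 and 7.74 on ND and 8.19, 7.71 and 8.01 on HFD (0.24 ± 0.19, limma adjusted p = 0.738). Irf1 read 6.69 and 6.57 on the 2 ND arrays with a value and 6.60, 5.92 and 6.18 on HFD (-0.40 ± 0.21, 0.581). Both overlapped between the diets. Irf7, which amplifies the type I response, read 5.58, 6.13 and 5.61 on ND and 5.21, 5.81 and 5.45 on HFD (-0.28 ± 0.19, 0.670). Ifitm3 read 12.20, 12.26 and 12.29 on ND and 12.10, 12.08 and 12.12 on HFD. The Ifitm3 arrays were tight and did not overlap, but the difference of -0.15 ± 0.10 did not pass (0.673). It was the only 1 of the 28 members with every HFD array below every ND array at this time (all genes 11.5%), and Mx2 and Ifih1 were the 2 with every HFD array above (all genes 5.39%). The macrophage level was 1.49, -2.06 and -3.44 on ND and -0.55, 0.92 and -0.64 on HFD.

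After 4 months no member passed the test of the diets. No gene passed (0.0% of all called), and the lowest adjusted p of a member was 0.999 in limma. Of the 28 members 17 were higher on HFD (60.7%, all genes 47.5%), with a median difference of 0.06 against -0.01 over all genes. Mx2, at 3.13, 3.23 and 3.28 on ND and 3.74, 3.30 and 3.63 on HFD, was the 1 member at an unadjusted p under 0.05 (0.34 ± 0.14, 3.57% against 3.04% of all genes). It was also the 1 member with every HFD array above every ND array (all genes 3.4%). Irf7 was the 1 with every HFD array below (all genes 4.64%), at 5.46, 5.39 and 5.39 on ND and 5.30, 5.23 and 5.26 on HFD.

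Stat2 and Ifitm3 showed no lower level on HFD at 4 months of the size seen at 2 months. Stat2 read 7.41, 7.68 and 7.04 on ND and 7.54, 7.52 and 7.64 on HFD (0.19 ± 0.16). Ifitm3 read 12.04, 11.86 and 12.13 on ND and 12.05, 11.96 and 11.94 on HFD. Lgals3bp read 8.88, 8.96 and 8.41 on ND and 8.98, 8.88 and 9.20 on HFD (0.27 ± 0.20). In each of these 3 genes the diets overlapped.

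Irf1 read 6.56, 6.88 and 6.77 on ND and 6.17, 6.28 and 6.68 on HFD at 4 months (-0.36 ± 0.19). Eif2ak2 read 5.39, 5.63 and 5.59 on ND and 5.40, 5.23 and 5.51 on HFD (-0.16 ± 0.12), and Irgm 6.54, 5.83 and 6.05 on ND and 5.85, 5.62 and 6.30 on HFD (-0.22 ± 0.22). These 3 were the largest lower means of the members, each with overlap and an adjusted p of 0.999 in limma. The macrophage level was 0.38, 1.92 and 0.07 on ND and 1.60, 1.19 and 1.27 on HFD.

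**Figure D4:**
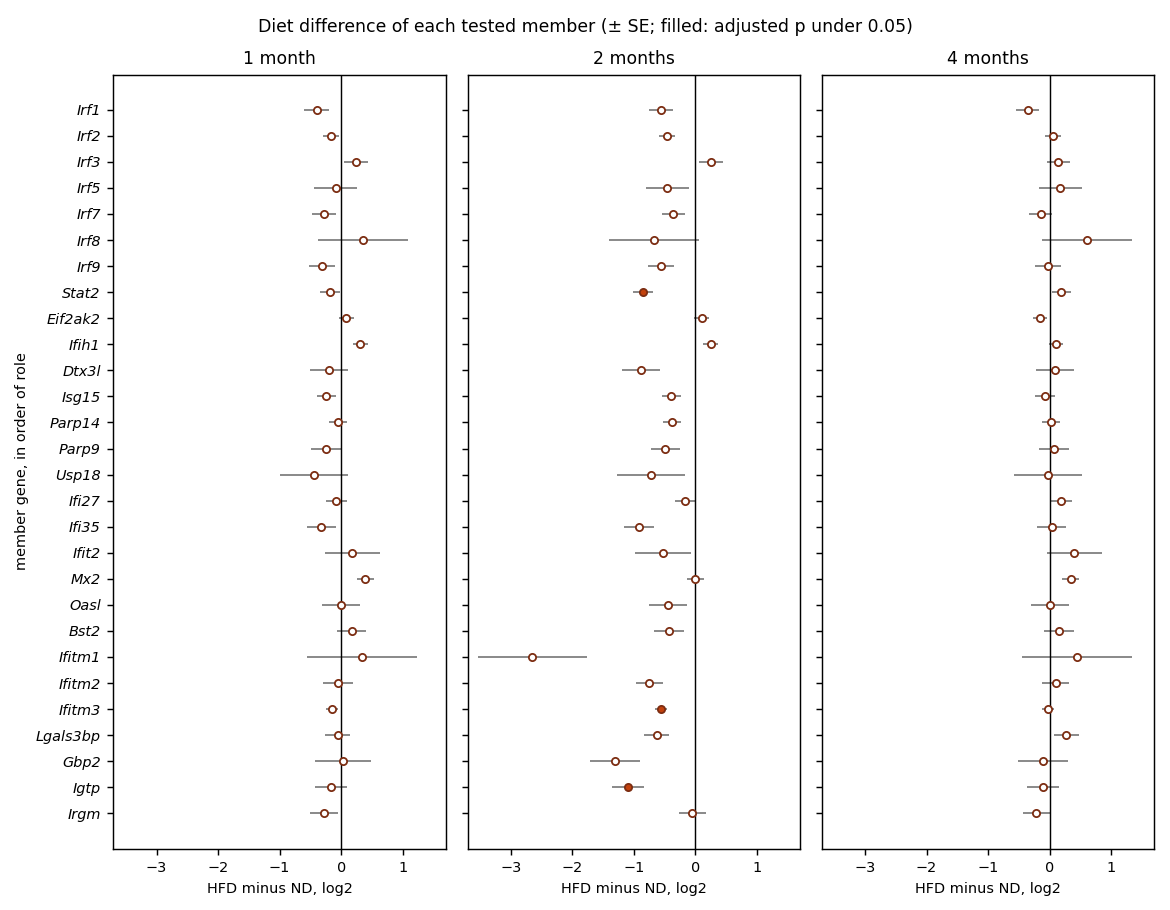
HFD minus ND difference in log2 intensity, with its SE, for each of the 28 tested members after 1, 2 and 4 months of feeding; filled points have an adjusted p under 0.05. At 2 months 24 points lie left of 0, with Ifitm3, Stat2 and Igtp filled, and no point is filled at 1 or 4 months.

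Averaged over the 3 feeding times, Ifitm3 was the member that fell on HFD, by -0.25 ± 0.06 (limma adjusted p = 0.0395), which is 3.57% of the members against 1.56% of all genes. None rose (0.865% of all genes), and 2.43% of all genes passed in either direction. This call was lost in 13 of the 18 fits that left out 1 array each and under quantile normalization. Irf1 had an average of -0.44 ± 0.11 (0.0574) and Igtp an average of -0.46 ± 0.15 (0.101). Both had the same sign at each time, as did several other members. On the higher side stood Ifih1 at 0.22 ± 0.07 (0.0963), Mx2 at 0.25 ± 0.08 (0.110) and Irf3 at 0.21 ± 0.11 (0.281). In all 22 of 28 members were lower on average (78.6%, all genes 59.7%), and the median was -0.21 against -0.04 over all genes. An unadjusted p under 0.05 was found for 11 members (39.3%, all genes 20.8%).

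The difference between the diet effects at the 3 times was tested directly with a moderated F test. No member passed, and neither did any other gene (0.0% called), so the larger effect at 2 months was not shown to differ from those at 1 and 4 months. Stat2 (F = 10.73, limma adjusted p = 0.423) and Ifitm3 (F = 8.07, 0.532) had the largest statistics among the members. At an unadjusted p under 0.05 there were 8 members (28.6%, all genes 6.67%): Stat2, Ifitm3, Lgals3bp, Igtp, Ifi35, Ifitm1, Ifitm2 and Irf2.

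Feeding time was also compared within each diet. On ND no member passed and no gene did (0.0% called), and 1 member, Ifitm3, had an unadjusted p under 0.05 (3.57%, all genes 6.97%). On HFD 22 genes passed (0.192%), none of them a member, and 9 members had an unadjusted p under 0.05 (32.1%, all genes 13.8%). Igtp came first (F = 10.56, limma adjusted p = 0.123), at 5.68, 6.08 and 5.27 after 1 month, 4.94, 4.33 and 4.73 after 2, and 5.78, 5.77 and 5.59 after 4. Lgals3bp followed (F = 9.31, 0.146), at 8.76, 9.06 and 8.99 after 1 month against 7.88, 8.06 and 8.71 after 2. In both genes the 2-month arrays were the lowest on HFD, and they did not overlap with the arrays of the other times. These tests share the HFD 2-month arrays with the diet comparison at 2 months.

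The macrophage level varied between arrays of the same group, which allowed a slope of each gene on that level to be fitted within groups. Of the 28 members 10 had a positive slope past the test (35.7%, against 11.2% of all tested genes) and none a negative one (5.73%). Positive slopes were found in 21 members, where 51.3% of all genes had one, and the median slope was 0.11 log2 per log2 unit of macrophage level against 0.00. The 10 were Irf8, Usp18, Ifi27, Ifitm1, Irf5, Dtx3l, Ifitm2, Parp9, Irf9 and Irf2. Without ND 1-month replicate 1 there were 5, without ND 2-month replicate 3 there were 4, and without both, an alternative chosen after seeing the data, Ifitm1 alone. Irf8, Usp18, Ifitm1 and Ifi27 passed without each array in turn. Other marker lists varied along with this level in some groups. On ND at 2 months the macrophage level was 1.71, 1.53 and -1.82. The granulocyte level there was 0.73, 0.93 and -0.58 and the adipocyte level -0.40, -0.56 and 1.36. On HFD at 2 months the granulocyte level hardly varied, at -0.32, -0.39 and -0.37. No slope on another list was fitted, so these slopes cannot be told apart from slopes on such lists.

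Irf8, a transcription factor that macrophages and dendritic cells need to develop, had the slope with the lowest adjusted p, 0.58 ± 0.07 (0.000128, limma). At 1 month Irf8 read 5.95, 3.16 and 3.25 on ND and 4.01, 5.32 and 4.09 on HFD. At 2 months it read 5.66, 5.58 and 3.66 on ND and 4.26, 3.97 and 4.65 on HFD, and at 4 months 4.34, 6.10 and 4.24 on ND and 5.96, 5.14 and 5.41 on HFD. In every group the array with the highest macrophage level was also the highest for Irf8.

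Usp18 removes Isg15 from proteins and dampens the type I receptor. Its slope was 0.43 ± 0.06 (limma adjusted p = 0.000347). At 1 month it read 6.74, 5.52 and 4.16 on ND and 4.70, 5.88 and 4.51 on HFD, at 2 months 6.36, 5.97 and 4.67 on ND and 4.92, 4.81 and 5.09 on HFD, and at 4 months 5.63, 6.31 and 5.73 on ND and 5.88, 5.52 and 6.20 on HFD. Within ND at 1 and 2 months its order was that of the macrophage level.

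Ifitm1 had a slope of 0.61 ± 0.13 (limma adjusted p = 0.00691). Besides the 2-month arrays above, it read 11.52, 10.18 and 8.99 on ND and 10.46, 10.76 and 10.49 on HFD at 1 month, and 10.22, 11.91 and 9.85 on ND and 11.69, 10.97 and 10.65 on HFD at 4 months. Both HFD 2-month arrays with a low Ifitm1 had negative macrophage levels, -2.51 and -1.09. Some ND arrays with levels in or below that range read higher for Ifitm1. These were ND 1-month replicates 2 and 3 (levels -2.06 and -3.44, Ifitm1 10.18 and 8.99) and ND 2-month replicate 3 (-1.82, 10.14). The cause of the low Ifitm1 values was not tested. Ifitm2 had a slope of 0.18 ± 0.05 (0.0216), and read 11.08 and 10.81 on the 2 ND arrays with a value and 10.72, 11.07 and 10.89 on HFD at 1 month. At 4 months Ifitm2 read 10.81, 11.43 and 10.82 on ND and 11.43, 11.04 and 10.87 on HFD.

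Ifi27 had a small but tight slope of 0.12 ± 0.02 (limma adjusted p = 0.00387). At 1 month it read 10.88, 10.63 and 10.32 on ND and 10.27, 10.77 and 10.54 on HFD, at 2 months 10.81, 10.81 and 10.45 on ND and 10.43, 10.46 and 10.66 on HFD, and at 4 months 10.53, 10.89 and 10.43 on ND and 10.88, 10.77 and 10.78 on HFD. At each feeding time the ND array with the highest macrophage level read 10.81 or more. Irf5, a factor of macrophage activation, had a slope of 0.24 ± 0.05 (0.00997). At 1 month Irf5 read 6.65, 5.86 and 5.81 on ND and 5.93, 6.38 and 5.74 on HFD, at 2 months 6.75, 6.33 and 5.70 on ND and 5.77, 5.53 and 6.09 on HFD, and at 4 months 6.25, 6.75 and 5.22 on ND and 6.24, 6.14 and 6.34 on HFD.

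The pair Dtx3l and Parp9, whose proteins form 1 complex, had slopes of 0.20 ± 0.05 (limma adjusted p = 0.0174) and 0.15 ± 0.04 (0.0278). Dtx3l read 5.63, 4.98 and 4.24 on ND and 4.73, 5.04 and 4.48 on HFD at 1 month, and 4.53, 5.33 and 5.11 on ND and 5.09, 5.06 and 5.08 on HFD at 4 months. Parp9 read 6.87, 6.25 and 5.95 on ND and 5.88, 6.54 and 5.89 on HFD at 1 month, 6.70, 6.62 and 6.18 on ND and 6.13, 6.24 and 5.67 on HFD at 2 months, and 6.30, 6.57 and 6.14 on ND and 6.46, 6.32 and 6.43 on HFD at 4 months. On ND at 1 month both genes followed the order of the macrophage level.

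Irf9 and Irf2 passed narrowly, with slopes of 0.12 ± 0.04 (limma adjusted p = 0.0453) and 0.08 ± 0.02 (0.0457), and lost the call in 14 and 13 of the 18 fits that left out 1 array each. Irf9 read 6.73, 6.21 and 5.98 on ND and 5.91, 6.34 and 5.76 on HFD at 1 month, and 6.30, 6.59 and 6.24 on ND and 6.52, 6.22 and 6.31 on HFD at 4 months. Irf2 read 7.92, 7.70 and 7.45 on ND and 7.51, 7.55 and 7.51 on HFD at 1 month, and 7.78, 7.93 and 7.87 on ND and 8.04, 7.74 and 7.95 on HFD at 4 months. The second probe set of Irf9 had a slope of 0.14 ± 0.04 (0.0251).

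The 3 members that fell at 2 months did not have slopes past the test from the probe set used. The slope of Ifitm3 was -0.03 ± 0.02 (limma adjusted p = 0.337), that of Stat2 0.07 ± 0.03 (0.168) and that of Igtp 0.14 ± 0.05 (0.0706). The second Stat2 probe set did pass, at 0.15 ± 0.04 (0.0186). On ND 2-month replicate 3, where the macrophage level was lowest of the ND arrays of that time, Ifitm3 read 12.29 and on HFD 2-month replicate 3, where it was highest of the HFD arrays, 11.61. Negative slopes that did not pass were those of Irf1 (-0.10 ± 0.05), Irgm (-0.09 ± 0.05), Isg15 (-0.07 ± 0.03), Irf7 (-0.05 ± 0.04) and Eif2ak2 (-0.04 ± 0.03).

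**Figure D5:**
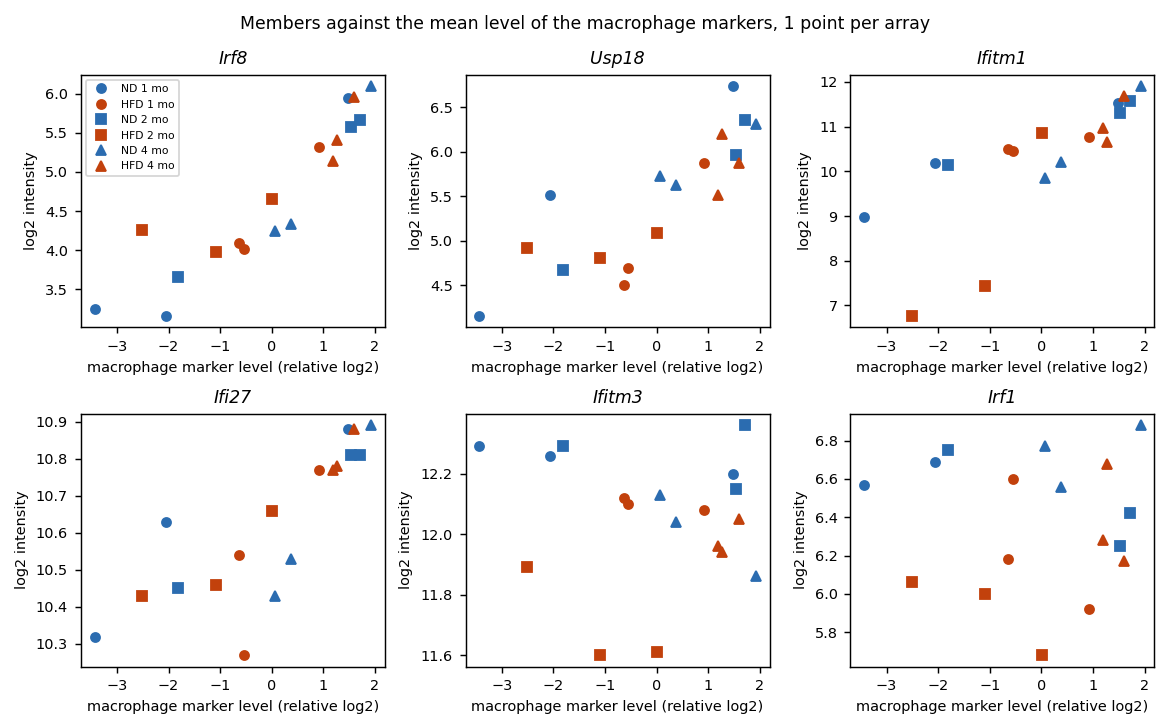
Log2 intensity of Irf8, Usp18, Ifitm1, Ifi27, Ifitm3 and Irf1 against the macrophage marker level (relative log2) with 1 point per array (blue, ND; red, HFD; circles, 1 month; squares, 2 months; triangles, 4 months). The first 4 genes are higher where the level is higher, and Ifitm3 and Irf1 each have their single lowest value on an HFD 2-month array.

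The rest of the pathway was read from lists of named genes. Of 7 interferon ligands 3 had a probe set, and all 3 were below the filter: Ifnb1 read 2.11 to 3.10, Ifng 1.75 to 2.16 and Ifnk 2.10 to 2.58. Of 11 receptors and signalling proteins 10 were tested, all 10 were lower on HFD at 2 months, with a median difference of -0.30, and 2 fell. Of all tested genes 55.3% were lower at that time and 1.39% fell, which also holds as the background of the lists that follow. The kinase Jak2, which serves the interferon gamma receptor and many cytokine receptors, read 7.90, 7.68 and 7.34 on ND and 6.61, 6.42 and 6.20 on HFD (-1.23 ± 0.20, limma adjusted p = 0.00965). Stat3, which carries the signals of interleukin-6 and related cytokines, read 9.24, 9.34 and 9.34 on ND and 8.61, 8.65 and 8.74 on HFD (-0.64 ± 0.14, 0.0268). Neither gene overlapped between the diets. Jak2 was among the genes that differed between feeding times on HFD (F = 20.67, 0.0447) and fell on average over the times (-0.47 ± 0.11, 0.0448). The receptor chains Ifnar1 (0.20 ± 0.04) and Ifngr1 (0.27 ± 0.03) and the kinase Tyk2 (0.08 ± 0.03) had positive slopes on the macrophage level, 3 of 10 where 11.2% of all genes had one.

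The next list held 9 genes, 8 of them regulators, most of which dampen the signal, and 1, Isg20, an antiviral exonuclease. Socs3, the feedback inhibitor induced by Stat3, fell at 2 months, from 4.99, 4.89 and 4.38 on ND to 3.28, 3.26 and 3.70 on HFD (-1.34 ± 0.29, limma adjusted p = 0.0284). The SUMO ligase Pias1 fell on average over the feeding times (-0.28 ± 0.04, 0.0117). Socs3 (0.19 ± 0.04) and the blood cell phosphatase Ptpn6 (0.77 ± 0.07) had positive slopes on the macrophage level, 2 of 9 against 11.2%. Of 20 sensing genes 10 were tested and none passed a diet comparison. At 2 months the largest moderated t were those of the adaptors Myd88 (-0.57 ± 0.19, 0.122) and Mavs (0.45 ± 0.19, 0.205). Of these sensing genes 5 of 10 had a positive slope on the macrophage level, where 11.2% of all genes did, namely the DNA-sensing adaptor Sting1 (0.71 ± 0.08), the Toll-like receptors Tlr2 (0.87 ± 0.09), Tlr4 (0.54 ± 0.07) and Tlr7 (0.86 ± 0.08), and Myd88 (0.12 ± 0.03).

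Of 35 other interferon-induced antiviral genes 19 were tested, 14 of them lower on HFD at 2 months (55.3% of all genes), and 2 fell (1.39% of all genes). The galectin Lgals9 read 5.50, 6.08 and 5.69 on ND and 3.21, 4.05 and 3.51 on HFD (-2.17 ± 0.30, limma adjusted p = 0.00623), and differed between feeding times on HFD (F = 29.78, 0.0229). The ADP-ribosyltransferase Parp10 read 5.81, 5.70 and 5.75 on ND and 4.95, 4.53 and 4.66 on HFD (-1.04 ± 0.22, 0.0294). Ifit1, of the same family as Ifit2 and Ifit3, rose on average (0.39 ± 0.09, 0.0424), with 0.62 ± 0.16 at 2 months (0.0537). Pml, the scaffold of nuclear bodies, fell on average (-0.36 ± 0.08, 0.0385), as did Lgals9 (-0.86 ± 0.17, 0.0240). Positive slopes on the macrophage level were found for Ifi44, Nmi and Plscr1 (0.17, 0.14 and 0.34) and negative ones for Ifit1 and Samhd1 (-0.09 and -0.13), 3 and 2 of 19 where 11.2% and 5.73% of all genes had them.

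Of 12 genes of interferon gamma-induced antigen presentation 11 were tested, 10 of them lower on HFD at 2 months (55.3% of all genes), and 3 fell (1.39% of all genes), all of them parts of the immunoproteasome or its activator. The catalytic subunit Psmb9 read 7.36, 7.25 and 7.70 on ND and 4.97, 5.73 and 5.80 on HFD (-1.94 ± 0.30, limma adjusted p = 0.00924). The activator subunits Psme1 and Psme2 stood at -0.98 ± 0.22 (0.0385) and -0.80 ± 0.18 (0.0428). Psmb9 also fell on average over the feeding times (-0.89 ± 0.17, 0.0227). None of the 11 had a slope on the macrophage level past the test. No gene of any of these lists passed at 1 or 4 months.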

How the data were processed

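Total RNA of BMSCs was measured on 18 single-colour Affymetrix rat arrays, 3 per diet and feeding time. Each deposited value is the linear intensity of 1 probe set, which the authors summarised with RMA, per the submitters' processing notes, where no version is given. In the deposited table the values of ND 1-month replicate 1 were displaced upwards by 1343 rows and were shifted back, which raised their correlation with the other arrays' mean from 0.0909 to 0.990. This left 1343 probe sets without a value on that array. Log2 was taken with no added constant. Under the platform annotation 20832 probe sets carried 1 gene symbol, 436 several and 9831 none. The 57 control probe sets and the dimmest 30% of the others (at or below 9.34 in linear intensity) were left out. The number of arrays limits the precision.

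Group means were estimated over the 18 arrays together using limma 3.58.1 under R 4.3.3, with two-sided moderated tests and Benjamini-Hochberg adjustment over all tested probe sets, and the procedure was tested on simulated data. Counts over all genes take each named gene's brightest tested probe set. The macrophage slope came from the same model with the mean relative level of 24 macrophage markers as a covariate. Array values are given for members that passed any test and for the 3 largest moderated t each way in each diet comparison. Further members were printed to describe each role. The members, gene lists and tests were chosen with earlier results of these data known. The alternatives covered the filter, scaling, a pseudocount, the variance model, array weights, probe set choice, the replicate number as a block, the macrophage level, the compared arrays alone and leaving out arrays.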

Additional observations from a re-analysis of the deposited data

How the results depend on the processing

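No member passed at 1 month, at 4 months, in the test of different diet effects or between feeding times on ND, under every alternative run. At 2 months, where 3 members fell, 13 fell with array weights (2384 of all genes passed, against 285), 1 after averaging each gene's probe sets, 0 with the 6 arrays alone (2 of all genes) and 7 without the pair of arrays ND 1-month replicate 1 and ND 2-month replicate 3, an alternative chosen after seeing the data (681 of all genes). Leaving out 1 array at a time gave 0 to 6: none without ND replicate 1 or HFD replicate 2 of 2 months, Ifitm3 alone without ND replicate 2 or HFD replicate 1, and 6 without HFD replicate 3, with 18 to 728 of all genes. On average over the times, where 1 member fell, 0 did under quantile normalization and without both named arrays, 2 under median centring and with the macrophage covariate, and 8 with array weights (104, 101, 371, 630 and 1710 of all genes, against 278), and leaving out 1 array gave 0 to 2. Between feeding times on HFD, 9 passed with array weights where 0 did (1582 of all genes, against 22), and leaving out 1 array gave 0 to 2, the 2 without HFD replicate 3 of 2 months (300 of all genes). Of the slopes on the macrophage level 10 passed, 5 with the replicate block and 1 without both named arrays (1238 and 316 of all genes, against 1943), and leaving out 1 array gave 4 to 12. The cause was not tested. The iteration for the array weights stopped before it converged.

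For the members named by the rule, 919 single values under alternatives kept their direction and side of the threshold, 97 kept the direction and lost the call, 5 gained one and none reversed. Other members were not followed in this way, and some that did not pass changed sign with the macrophage covariate, such as Irf8 at 2 months (-0.68 to 0.30) and Ifitm1 at 1 month (0.34 to -0.43). Among all called genes, the share of higher calls at 2 months was 44.2%, against 60.0% under quantile normalization and 34.9% under median centring. On average over the times it was 35.6%, against 65.4% and 22.4%. The residuals gave no general sign that replicate numbers pair the arrays. The mean residual correlation of arrays with the same number was -0.0254 over 45 pairs (range -0.572 to 0.662), against 0.0104 for different numbers. Of the 9 same-number pairs at the same time 3 were above 0.1. A mean near 0 over so wide a range does not exclude a pairing, and the labels do not state one. With the replicate block 3 members still fell at 2 months, and 156 of all genes passed. With 3 arrays per group, differences within the spread were not detectable. The 8 dim members were tested only without the filter, where none passed.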
